A study of Mus musculus with 36 samples.

Results

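The genes described here are 8 members of the tumour necrosis factor (TNF) superfamily in mouse bone marrow-derived macrophages (BMDMs): 5 ligands, Tnf, Tnfsf9, Tnfsf10, Tnfsf13b and Tnfsf15, and 3 receptors, Tnfrsf1a, Tnfrsf1b and Fas. They were chosen by gene name, and each name matched 1 of the 54532 genes in the table of counts. RNA-seq of 36 libraries asked how CCM, a small molecule that binds the PASB domain of the clock protein BMAL1, changed gene expression in resting and in LPS-stimulated macrophages, and whether myeloid deletion of Bmal1 altered that. LPS, the outer membrane glycolipid of Gram-negative bacteria, activates macrophages through the receptor TLR4. Total counts ran from 13469262 to 28288923 per library, with a median of 19951421.

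The knockout (KO) cells came from LysM-Cre;Bmal1 flox/flox mice, in which Cre is driven by the myeloid LysM promoter, and the wild-type (WT) cells from littermates with the Bmal1 flox/flox alleles and no Cre. All donors were C57BL/6 by the labels and females aged 13 to 17 weeks by the study's methods, and marrow was cultured for 7 days with MCSF. Each genotype was treated for 6 h with DMSO vehicle, 100 µM CCM, 100 nM LPS, or 100 nM LPS with 100 µM CCM. There were 3 libraries in each WT group and 6 in each KO group. The study gives these as n for female mice of each genotype, while the labels number the replicates without tying a number to an animal, and each p-value measures the spread between these libraries. In bulk RNA, fewer expressing cells and less RNA per cell cannot be told apart.

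TNF superfamily ligands are trimeric, mostly membrane-anchored proteins that bind receptors on the same, neighbouring or distant cells. Receptors with a cytoplasmic death domain, such as TNFR1 and FAS, can recruit caspase-8 and start cell death, whereas TNFR2 lacks that domain and signals through TRAF adaptors. Macrophages are a main source of TNF, which their own receptors can also read.

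For 5 of the genes the 300 bases around the start site are printed, because Tnf, Tnfsf10 and Tnfsf15 were lower when CCM was added to LPS while Tnfrsf1b and Fas were not called. The RefSeq promoter table (GRCm38.p6) matched 7 of the 8 genes, all but Tnfsf9. Each stretch runs 5′ to 3′ in the direction of the gene, from 250 bases before to 50 after the start. Tnf lies at chr17:35201958-35202257 (minus strand), Tnfsf10 at chr3:27316827-27317126 (plus), Tnfsf15 at chr4:63745010-63745309 (minus), Tnfrsf1b at chr4:145246821-145247120 (minus) and Fas at chr19:34290409-34290708 (plus). Capitals mark matches to 5 motifs searched on both strands: the TATA box, the E-box that BMAL1 and CLOCK bind, the AP-1 site, the core of the interferon-stimulated response element (GAAA 2 times, with 2 free bases between) and the κB consensus.
Tnf: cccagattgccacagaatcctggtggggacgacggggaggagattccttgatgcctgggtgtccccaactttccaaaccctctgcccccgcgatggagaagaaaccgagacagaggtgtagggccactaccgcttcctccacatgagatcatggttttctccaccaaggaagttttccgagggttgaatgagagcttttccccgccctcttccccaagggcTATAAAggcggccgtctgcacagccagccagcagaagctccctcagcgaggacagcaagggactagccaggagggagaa
Tnfsf10: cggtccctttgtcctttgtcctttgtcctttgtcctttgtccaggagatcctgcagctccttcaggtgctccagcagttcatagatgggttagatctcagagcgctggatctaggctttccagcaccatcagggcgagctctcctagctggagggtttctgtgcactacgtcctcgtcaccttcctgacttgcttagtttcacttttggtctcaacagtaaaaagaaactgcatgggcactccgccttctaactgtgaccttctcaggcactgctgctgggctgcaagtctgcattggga
Tnfsf15: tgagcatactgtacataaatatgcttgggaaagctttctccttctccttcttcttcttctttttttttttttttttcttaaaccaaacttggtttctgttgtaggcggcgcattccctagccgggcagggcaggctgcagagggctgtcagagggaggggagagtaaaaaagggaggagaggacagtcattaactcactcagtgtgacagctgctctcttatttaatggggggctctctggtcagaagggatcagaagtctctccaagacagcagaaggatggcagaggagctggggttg
Tnfrsf1b: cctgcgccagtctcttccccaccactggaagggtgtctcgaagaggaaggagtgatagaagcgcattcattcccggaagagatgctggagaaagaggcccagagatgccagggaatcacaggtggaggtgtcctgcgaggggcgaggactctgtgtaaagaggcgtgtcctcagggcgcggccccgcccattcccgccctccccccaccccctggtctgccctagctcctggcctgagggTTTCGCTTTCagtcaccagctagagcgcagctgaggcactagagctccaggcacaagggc
Fas: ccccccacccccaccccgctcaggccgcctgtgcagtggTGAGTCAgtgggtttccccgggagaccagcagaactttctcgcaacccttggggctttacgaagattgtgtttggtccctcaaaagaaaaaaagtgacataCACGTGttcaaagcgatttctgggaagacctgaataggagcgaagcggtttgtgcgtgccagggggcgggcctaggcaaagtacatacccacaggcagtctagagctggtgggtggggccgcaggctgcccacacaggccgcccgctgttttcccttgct
The Tnf stretch held a TATA box starting 29 bases before the start site. Fas held an AP-1 site and an E-box, starting 211 and 110 bases before it, and Tnfrsf1b held the interferon motif on the opposite strand. In Tnfsf10 and Tnfsf15 none of the 5 motifs was found, and none matched the κB consensus in any of the 7 genes. Of the 2 genes not printed, Tnfrsf1a held none of the 5. Tnfsf13b had 2 overlapping windows, from 10006217 and from 10006383 on chr8. Both held the same AP-1 site, 39 bases after the start of the former and 127 before that of the latter, and the interferon motif lay in the latter alone. Among all 32851 promoters of this length, 13.6% held the TATA box TATAAA, 7.15% the E-box CACGTG, 7.81% the AP-1 site TGANTCA, 3.44% the interferon motif and 8.46% the κB consensus. The matches describe these windows only.

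The macrophage label was checked against 9 markers. All 9 (Adgre1, Csf1r, Cd68, Itgam, Mertk, Fcgr1, Cd14, Spi1 and Mrc1) had more than 3 counts in each of the 36 libraries. Their summed level ran from 4361 to 9762 CPM (counts scaled to library size with TMM factors), with Csf1r the most abundant in all libraries without LPS and Cd14 or Adgre1 in those with it. Outside 6 libraries described next, the summed neutrophil list reached 323 to 877 CPM, fibroblast genes 303 to 1706 CPM and B cell genes 22.0 to 186 CPM. The T and NK cell list reached 1.60 to 5.25 CPM, dendritic cell genes 2.43 to 15.2, erythroid genes 1.31 to 7.04, mast cell and basophil genes 7.08 to 21.7 and endothelial genes 6.87 to 56.0 CPM. The largest contributors to the first 3 lists were S100a8 or S100a9, collagens and Ighm.

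Several KO libraries stood apart from the rest. In KO replicate 6, mitochondrial genes took 0.391% (vehicle), 0.255% (CCM), 0.449% (LPS) and 0.318% (LPS+CCM) of counts, against 0.948% to 1.57% in 30 other libraries. The median correlation of its log2 CPM with the other libraries of its group was 0.926, 0.899, 0.933 and 0.931 in these treatments. KO LPS+CCM replicates 2 and 5 lay between, with mitochondrial shares of 0.891% and 0.754%, and their 10 most abundant genes took 11.4% and 13.3% of counts. KO replicate 6 had counts of all 8 neutrophil markers, 7 or 8 of them over 3 counts, with a summed level of 990, 1023, 1007 and 983 CPM in the 4 treatments and S100a9 the most abundant at 459 to 500 CPM. In KO LPS+CCM replicates 2 and 5 the list summed to 432 and 731 CPM. In the KO replicate 6 libraries, T and NK cell genes reached 5.95 to 10.8 CPM, above the 30 other libraries (Lck or Klrb1c the most abundant, 4 to 7 of 8 markers over 3 counts) and erythroid genes 4.85 to 11.4 CPM (Hba-a1, 2 to 3 of 6). B cell genes reached 103 to 202 CPM in replicate 6 and 252 and 152 CPM in LPS+CCM replicates 2 and 5 (Ighm, 4 to 5 of 6). Fibroblast genes (357 to 669 CPM), mast cell and basophil genes (12.5 to 22.2), dendritic cell genes (3.56 to 14.4) and endothelial genes (9.80 to 24.4) overlapped the 30 other libraries in KO replicate 6. In KO LPS+CCM replicates 2 and 5 fibroblast genes reached 750 to 1315 CPM, mast cell and basophil genes 7.94 to 8.08, dendritic cell genes 8.21 to 11.3, T and NK cell genes 3.75 to 3.76 and erythroid genes 3.12 to 4.18. Endothelial genes there were at 5.89 to 8.31 CPM, the former below all 30 other libraries. The part of these differences in the results below was not tested, and for some of the KO results values without them are also given.

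Bmal1 itself (Arntl) was counted over its whole length, so reads from exons outside the deletion are included and the counts do not check the genotype. In WT cells it was 7.27, 8.61 and 9.76 CPM with vehicle, 9.13, 8.55 and 11.1 with CCM, 10.2, 8.02 and 9.30 with LPS, and 12.9, 11.5 and 12.5 with LPS+CCM. In KO cells the lowest, median and highest were 2.97, 7.59 and 7.74 with vehicle, 5.01, 7.29 and 10.7 with CCM, 2.13, 7.19 and 9.03 with LPS, and 3.94, 6.97 and 9.32 with LPS+CCM. WT and KO overlapped with vehicle, with CCM and with LPS, whereas with LPS+CCM every KO library was below every WT library, a difference that was not tested. Adding CCM to LPS in WT cells raised Arntl by 0.43 ± 0.12 on the log2 scale (adjusted p = 0.0441 in edgeR), without overlap. That call was kept in 7 of 14 alternatives. It was lost without any of 5 of the 6 WT libraries, all but LPS replicate 1, with values from 0.34 to 0.47 and adjusted p from 0.0832 to 0.165, in a range of 0.00547 to 1 over all 14. The KO minus WT log2 fold change of Arntl was -0.34 ± 0.26 (SE) with vehicle and -0.45 ± 0.34 with LPS, with adjusted p = 1 and 0.986 in edgeR. KO replicate 6 had the lowest Arntl of the KO libraries in all 4 treatments.

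Per kilobase of gene length, the receptor Tnfrsf1b stood highest of the 8 genes in resting WT cells, at 150 ± 5.61 CPM per kb (SD, n = 3), followed by Tnfrsf1a at 68.5 ± 3.20. Tnf came next at 14.6 ± 1.47 CPM per kb, then Fas at 1.85 ± 0.196 and Tnfsf9 at 0.846 ± 0.174. Tnfsf13b, Tnfsf10 and Tnfsf15 were lowest, at 0.214, 0.139 and 0.0929 CPM per kb. Tnfsf10 overlapped both of its neighbours in this order, and all other neighbours were apart. Resting KO cells had the same first 6 places.
With LPS, WT Tnf reached 1053 ± 56.9 CPM per kb, just under Tnfrsf1b at 1128 ± 12.6 and above Tnfrsf1a at 133 ± 2.47. Tnfsf15 moved up to place 4 with 79.2 ± 8.08 CPM per kb, ahead of Fas with 25.4 ± 1.59, Tnfsf10 with 15.9 ± 0.215 and Tnfsf9 with 11.4 ± 1.19. Tnfsf13b was last at 0.190 ± 0.0407. All neighbours in this order were apart in the WT LPS libraries; in KO LPS cells, Tnfrsf1b and Tnf overlapped, as did the neighbours from Tnfsf15 to Tnfsf10.

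**Figure D1:**
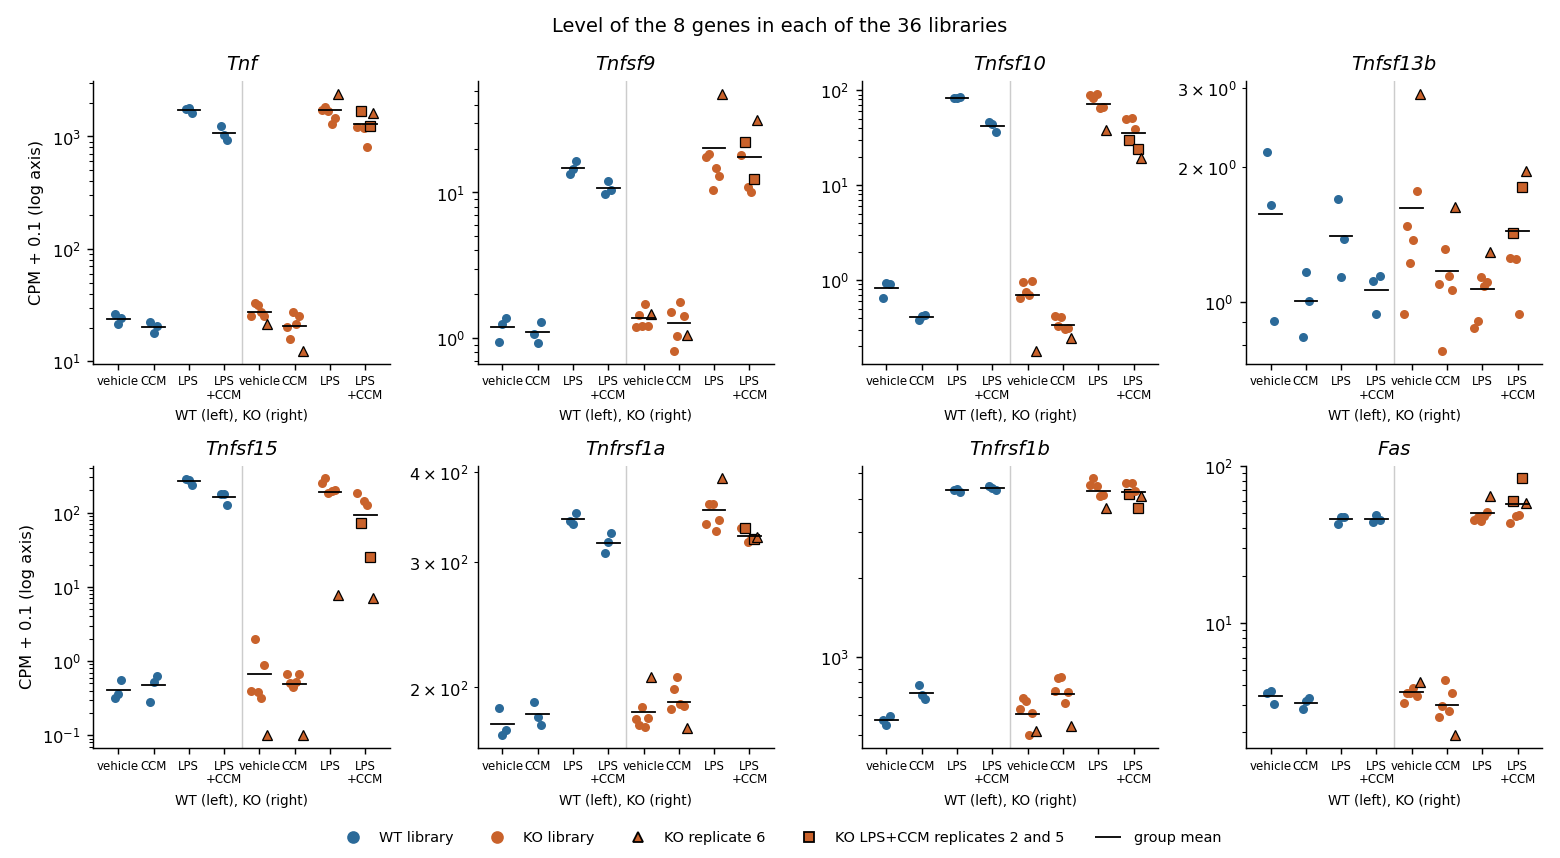
Level of each gene as CPM + 0.1 on a log axis, with 1 point per library and a bar at the group mean; the axis range differs between genes. LPS libraries lie above the unstimulated ones for every gene but Tnfsf13b, and KO replicate 6 (triangles) lies at 7.66 and 7.02 CPM of Tnfsf15 with LPS and with LPS+CCM.

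LPS raised 7 of the 8 genes in WT cells, all 3 receptors and every ligand except Tnfsf13b, and the same 7 in KO cells. A gene was called at an adjusted p of at most 0.05. Of all genes tested, 63% were called in WT and 47.1% in KO cells, and 30.6% and 22.4% were called higher. All 8 genes passed the filter on low counts in both fits. In the fits of CCM against vehicle, which hold no LPS libraries, Tnfsf15 did not pass in either genotype, nor Tnfsf10 in KO cells. The median log2 fold change of the 8 was 3.77 in WT and 3.90 in KO cells, against -0.05 in both over all genes tested. With the replicate number as a block, all 8 were called in KO cells, where 71.6% of all genes were.

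Tnf encodes the prototype ligand, shed from the membrane by the protease ADAM17; its gene lies at chr17:35199381-35202007 on the minus strand. In WT cells it was 26.0, 21.3 and 24.3 CPM with vehicle and 1748, 1807 and 1624 CPM with LPS. In KO cells the lowest, median and highest were 21.5, 26.3 and 32.6 CPM with vehicle and 1279, 1702 and 2391 CPM with LPS. No LPS library overlapped a vehicle library, and the highest KO value was that of replicate 6. Tnf rose by 6.18 ± 0.10 on the log2 scale in WT (72.5-fold, adjusted p = 2.7e-11) and by 5.98 ± 0.20 in KO cells (adjusted p = 8.3e-11).

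Tnfsf15 encodes TL1A, the ligand of death receptor DR3 (Tnfrsf25), and lies at chr4:63727084-63745113 on the minus strand. Its log2 fold change was the largest of the 8 genes. In WT cells it went from 0.220, 0.265 and 0.448 CPM with vehicle, which were 6 to 15 counts, to 282, 279 and 234 CPM with LPS. The KO vehicle libraries had a lowest, median and highest of 0, 0.287 and 1.87 CPM, and the KO LPS libraries 7.66, 200 and 290 CPM.
The lowest value with LPS was that of KO replicate 6, and the other 5 KO LPS libraries held 186 CPM or more. Replicate 6 had 0 counts of Tnfsf15 with vehicle, so its level with LPS was at least 31.8-fold higher, against a floor of 3 counts in that library. Groups with and without LPS did not overlap in either genotype. The log2 fold change was 9.66 ± 0.16 in WT (adjusted p = 3.41e-11) and 8.28 ± 0.92 in KO cells (adjusted p = 5.98e-06), and 8.39 ± 0.33 in KO cells without replicate 6. Without KO replicate 2, which held the 1.87 CPM with vehicle, it was 8.95 ± 0.98.

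Tnfsf10 encodes TRAIL, which binds death receptor 5 in mice and is known as an interferon-stimulated gene (chr3:27317028-27342427, plus strand). It was 0.551, 0.839 and 0.806 CPM in WT vehicle and 83.8, 82.3 and 84.5 CPM in WT LPS libraries. In KO cells the lowest, median and highest were 0.0804, 0.622 and 0.880 CPM with vehicle and 38.0, 75.0 and 91.6 CPM with LPS. The lowest KO value was again replicate 6 in both treatments, with 1 count under vehicle. Tnfsf10 rose by 6.83 ± 0.11 on the log2 scale in WT (adjusted p = 3.32e-11) and by 6.83 ± 0.34 in KO cells (adjusted p = 3.13e-09), with no overlap between groups. Leaving out KO replicate 6 gave 6.80 ± 0.15.

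Tnfsf9 encodes the ligand of 4-1BB, a co-stimulatory receptor of T cells. The gene, at chr17:57105325-57107757 on the plus strand, overlaps Gm11110 on the other strand, and since no source used here states whether counting was stranded, reads of the 2 genes may be mixed. WT libraries had 0.845, 1.15 and 1.28 CPM with vehicle and 13.3, 14.4 and 16.4 CPM with LPS. KO libraries had a lowest, median and highest of 1.09, 1.23 and 1.62 CPM with vehicle and 10.3, 16.0 and 47.4 CPM with LPS. Replicate 6 gave that 47.4 CPM, and the next KO LPS library had 18.2. LPS raised Tnfsf9 by 3.74 ± 0.19 on the log2 scale in WT (adjusted p = 5.3e-08) and by 3.98 ± 0.38 in KO cells (adjusted p = 1.69e-06), or 3.51 ± 0.18 without KO replicate 6.

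Tnfsf13b encodes BAFF, a survival factor for B cells, and overlaps Gm44789 on the other strand (chr8:10006467-10039072). It was the 1 ligand not called with LPS. WT levels were 2.06, 1.54 and 0.806 CPM with vehicle and 1.59, 1.03 and 1.28 CPM with LPS, which overlapped. KO levels ran from 0.839 to 2.81 CPM with vehicle (median 1.33) and from 0.771 to 1.19 with LPS (median 0.995), the highest vehicle value being replicate 6. The log2 fold change was -0.16 ± 0.37 in WT (adjusted p = 0.717) and -0.64 ± 0.29 in KO cells (adjusted p = 0.0843). LPS lay below vehicle in 6 of 6 KO pairs, and the replicate block gave -0.58 with adjusted p = 0.0405, within a range of 0.00339 to 0.183 over 15 alternatives. Leaving out KO replicate 6 gave -0.46 ± 0.22 (adjusted p = 0.083).

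Tnfrsf1b encodes TNFR2 (chr4:145213463-145246870, minus strand). Its WT libraries held 573, 550 and 593 CPM with vehicle and 4315, 4353 and 4257 CPM with LPS. KO libraries had a lowest, median and highest of 501, 622 and 697 CPM with vehicle and 3690, 4312 and 4783 CPM with LPS. Every LPS library was above every vehicle library. Tnfrsf1b rose by 2.92 ± 0.06 in WT (7.56-fold; adjusted p = 1.23e-10) and by 2.81 ± 0.12 on the log2 scale in KO cells (adjusted p = 6.26e-10).
Tnfrsf1a encodes TNFR1, the death-domain receptor of TNF (chr6:125349362-125362484, plus strand), and moved least among the called genes. In WT cells it was 187, 171 and 174 CPM with vehicle and 342, 338 and 351 CPM with LPS; KO libraries ran from 176 to 207 CPM (median 181) and from 331 to 392 CPM (median 352). The groups did not overlap. Its log2 fold change was 0.96 ± 0.06 in WT (adjusted p = 1.78e-07) and 0.93 ± 0.09 in KO cells (adjusted p = 1.21e-06). Scaling by total counts alone moved the median of all genes to -0.47 in WT and -0.44 in KO cells; Tnfrsf1a was then 0.55 and 0.54, and still called.

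Fas encodes the receptor of FAS ligand. The gene, at chr19:34290659-34327770 on the plus strand, overlaps the small RNA gene Gm27818 on the same strand. WT libraries had 3.49, 3.58 and 2.92 CPM with vehicle and 42.4, 47.4 and 47.3 CPM with LPS, without overlap. KO libraries had a lowest, median and highest of 2.98, 3.46 and 4.10 CPM with vehicle and 44.4, 47.8 and 64.4 CPM with LPS, the highest being replicate 6 in both. Fas rose by 3.79 ± 0.10 on the log2 scale in WT (13.9-fold; adjusted p = 5.27e-10) and by 3.83 ± 0.14 in KO cells (adjusted p = 1.87e-10).

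**Figure D2:**
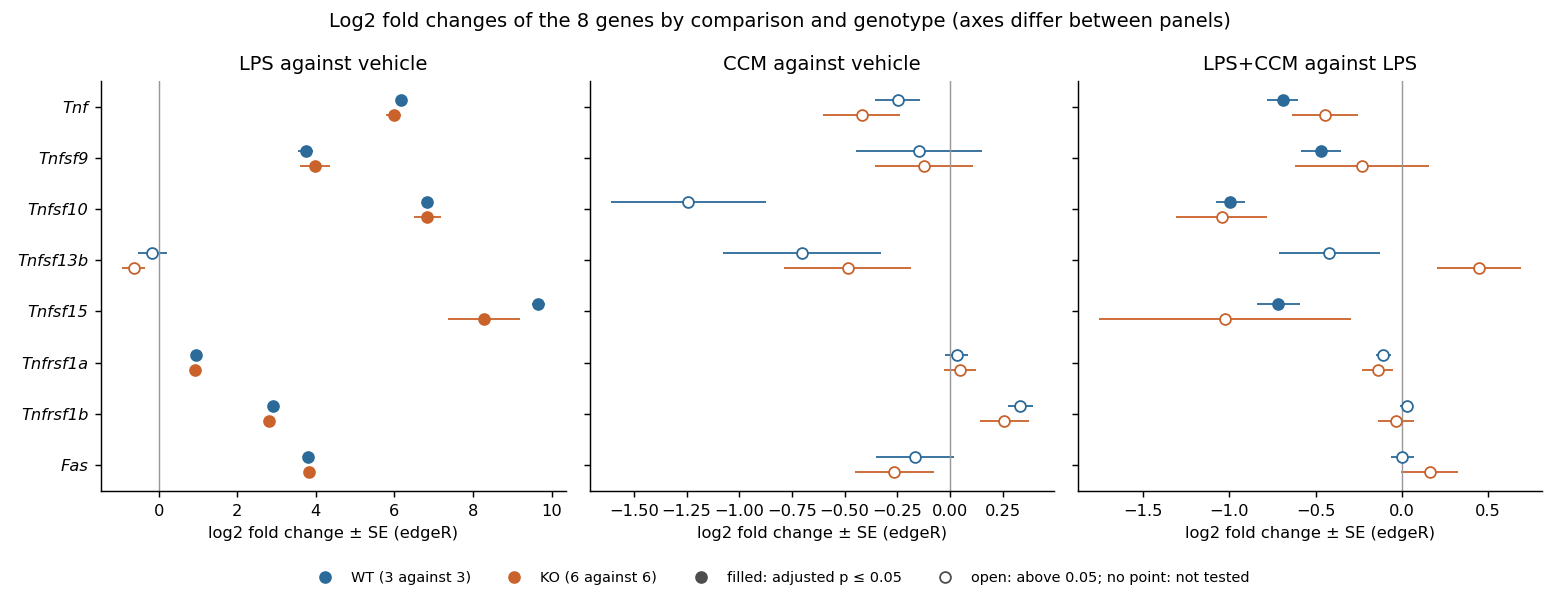
Log2 fold change ± SE of each gene for LPS against vehicle, CCM against vehicle and LPS+CCM against LPS, in WT (blue) and KO (orange) cells; filled points are at an adjusted p of 0.05 or less, and the axes differ. LPS and CCM comparisons share the vehicle libraries, and LPS and LPS+CCM comparisons share the LPS libraries.

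CCM alone, which asks what the compound did in resting cells, called 0 of 7 tested genes in WT and 0 of 6 in KO cells by edgeR. Of all genes, 0.057% were called in WT and 0% in KO cells. Without adjustment, 3 genes in WT (Tnf, Tnfsf10 and Tnfrsf1b) and 2 in KO cells (Tnf and Tnfrsf1b) had p below 0.05, as did 10% and 2.41% of all genes. DESeq2 called 1 in WT (2.41% of all genes it tested) and 0 in KO cells, and voom with quality weights 0 in both. Tnfsf15 was left out by the filter on low counts in both genotypes, and Tnfsf10 in KO cells.

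Tnfrsf1b had the smallest p of these in WT cells. In WT cells it was 573, 550 and 593 CPM with vehicle and 781, 716 and 689 CPM with CCM, so that the groups did not overlap. In KO cells the lowest, median and highest went from 501, 622 and 697 CPM to 545, 734 and 834 CPM, and CCM was above vehicle in 6 of 6 same-numbered pairs although the groups overlapped. The log2 fold change was 0.33 ± 0.06 in WT (adjusted p = 0.0985) and 0.26 ± 0.12 in KO cells (adjusted p = 1). DESeq2 gave 0.34 in WT with adjusted p = 3.61e-05, within a range of 3.61e-05 to 1 over 14 alternatives. With the replicate block, Tnfrsf1b was the 1 gene called in KO cells, at 0.26 with adjusted p = 0.00959 (range 0.00108 to 1 over 15 alternatives), where 3.11% of all genes were called.

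Tnfsf10 was among the least abundant members in resting cells. WT libraries had 0.551, 0.839 and 0.806 CPM with vehicle and 0.275, 0.323 and 0.329 CPM with CCM, without overlap, from 15 to 27 and 6 to 8 counts. In WT cells the log2 fold change was -1.24 ± 0.37 (adjusted p = 0.29). KO libraries had a lowest, median and highest of 0.0804, 0.622 and 0.880 CPM with vehicle and 0.145, 0.219 and 0.314 CPM with CCM.
The lowest KO value in each treatment was that of replicate 6, with 1 and 2 counts, and CCM lay below vehicle in the other 5 pairs. Without KO replicate 6, Tnfsf10 passed the filter and was -1.44 ± 0.26 with adjusted p = 0.0274, the 1 gene of the 8 called, where 1.01% of all genes were called. Its adjusted p ran from 0.0205 to 0.901 over the alternatives that tested it. Tnf was -0.25 ± 0.11 in WT and -0.42 ± 0.18 in KO cells, with CCM below vehicle in 3 of 3 and 6 of 6 pairs and adjusted p = 0.486 and 1. The WT libraries of CCM and vehicle were not taken as paired, so their pair count is a description only.
The remaining genes had log2 fold changes from -0.70 ± 0.37 (Tnfsf13b in WT) to 0.05 ± 0.08 (Tnfrsf1a in KO cells), and their groups overlapped. Among them Fas was -0.17 in WT and -0.26 ± 0.19 in KO cells, or -0.12 ± 0.16 without KO replicate 6, whose same-numbered ratio of -1.17 was the lowest of 6. Tnfrsf1a in KO cells was 0.10 ± 0.04 without that replicate. The others were Tnfsf9 at -0.15 and -0.12, Tnfsf13b -0.49 in KO cells and Tnfrsf1a 0.03 in WT.

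CCM added to LPS lowered 4 of the 8 genes in WT cells, all of them ligands: Tnf, Tnfsf9, Tnfsf10 and Tnfsf15. None was called higher. Of all genes, 11.9% were called and 7.78% were called lower. The receptors Tnfrsf1b and Fas had log2 fold changes near 0, and Tnfrsf1a a small one. In 5 of the 8 genes every LPS+CCM library lay below every LPS library, which held for 14% of all genes. The median log2 fold change of the 8 was -0.44, against 0.01 over all genes tested.

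Tnfsf10 had the largest decrease in WT cells. It was 83.8, 82.3 and 84.5 CPM with LPS and 46.4, 43.6 and 35.9 CPM with LPS+CCM, or 55.6%, 52.2% and 42.9% of the LPS mean. The groups were far apart compared with their spread. Tnfsf10 changed by -0.99 ± 0.08 on the log2 scale, with adjusted p = 7.37e-05.
Tnf was 1748, 1807 and 1624 CPM with LPS and 1250, 1020 and 938 CPM with LPS+CCM. These were 72.4%, 59.1% and 54.3% of the LPS mean, and still above the 26.0 CPM of the highest WT vehicle library. The groups did not overlap, and the log2 fold change was -0.69 ± 0.09 with adjusted p = 8.34e-04.
Tnfsf15 was 282, 279 and 234 CPM with LPS and 180, 178 and 126 CPM with LPS+CCM, without overlap. Replicate 3 was lowest in both groups. Its log2 fold change was -0.72 ± 0.12, with adjusted p = 0.0041.
Tnfsf9 was 13.3, 14.4 and 16.4 CPM with LPS and 9.70, 11.9 and 10.3 CPM with LPS+CCM. The groups were close but did not overlap. Its log2 fold change was -0.47 ± 0.12 with adjusted p = 0.0263, and the call rested on single libraries. Without LPS replicate 2 it was -0.49 (adjusted p = 0.0779), without LPS replicate 3 it was -0.38 (0.106), without LPS+CCM replicate 1 it was -0.41 (0.0716) and without LPS+CCM replicate 3 it was -0.45 (0.0795), in a range of 0.00288 to 1 over 14 alternatives.

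Tnfsf13b had 1.59, 1.03 and 1.28 CPM with LPS and 1.01, 0.837 and 1.04 CPM with LPS+CCM in WT cells, which overlapped (log2 fold change -0.42 ± 0.29, adjusted p = 0.423). Among the receptors, Tnfrsf1a was 342, 338 and 351 CPM with LPS and 309, 320 and 328 CPM with LPS+CCM. Its groups did not overlap, yet the log2 fold change of -0.11 ± 0.04 was not called (adjusted p = 0.147). With the replicate block it was -0.11 with adjusted p = 0.0289 (range 0.0289 to 1 over 14 alternatives), which made 5 of the 8 genes called where 23.7% of all genes were. Tnfrsf1b was 4315, 4353 and 4257 CPM with LPS and 4472, 4390 and 4318 CPM with LPS+CCM. Fas was 42.4, 47.4 and 47.3 CPM and 43.7, 48.3 and 45.4 CPM. Both pairs of groups overlapped. Their log2 fold changes were 0.03 ± 0.04 and 0.00 ± 0.07, with adjusted p = 0.7 and 0.981. In a fit of all 36 libraries, which shares 1 estimate of spread with the KO libraries, none of the 8 genes was called. That fit called 17 of all 15720 genes tested.

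**Figure D3:**
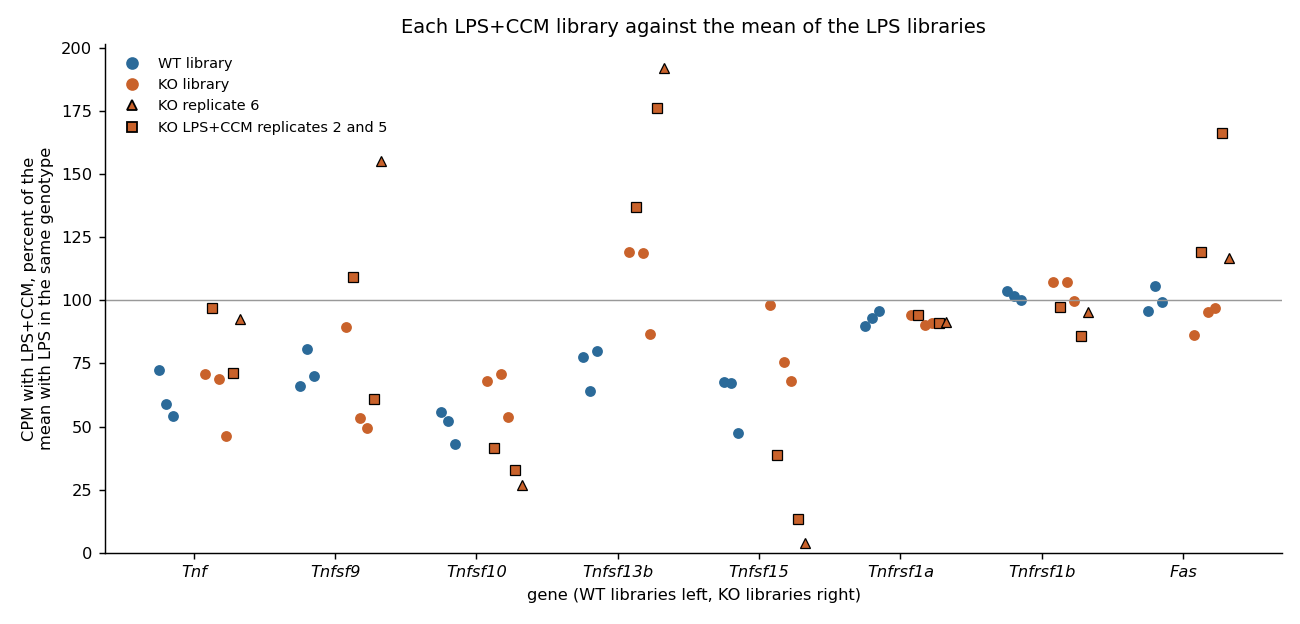
Level of each gene in every LPS+CCM library as a percent of the mean of the LPS libraries of its genotype; the line marks 100%. WT libraries of Tnf, Tnfsf9, Tnfsf10 and Tnfsf15 lie below the line, and KO LPS+CCM replicates 2 and 5 (squares) and replicate 6 (triangles) hold 38.9%, 13.3% and 3.72% for Tnfsf15.

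In KO cells, CCM added to LPS called 0 of the 8 genes by edgeR, and 0.112% of all genes. At an unadjusted p under 0.05 there were 2, Tnf and Tnfsf10, and 7.99% of all genes. DESeq2 called 1, and 1.3% of all genes it tested, and voom with quality weights called 2, and 5.74% of all genes. With the replicate block 2 were called, and 777 of all 13386 genes tested. Same-numbered libraries were not taken as paired in this comparison, where their correlations ran from -0.056 to 0.719. Counts of same-numbered pairs given for it below are a description only. In 0 of the 8 genes were all LPS+CCM libraries below all LPS libraries, against 0.636% of all genes. Over the 8 genes the median log2 fold change was -0.19, against 0.00 over all genes.

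Tnfsf10 in KO cells had a lowest, median and highest of 38.0, 75.0 and 91.6 CPM with LPS and 19.4, 34.4 and 51.0 CPM with LPS+CCM. The lowest library was replicate 6 in both groups, and LPS+CCM was below LPS in 6 of 6 same-numbered pairs. The log2 fold change was -1.05 ± 0.27 with adjusted p = 0.169. Without KO replicate 6 it was -1.04 ± 0.20 with adjusted p = 0.0282, the 1 gene of the 8 called, where 1.27% of all genes were. Without KO replicates 2, 5 and 6, a setting chosen after seeing the data, it was -0.82 ± 0.15 with adjusted p = 0.0634, and 0 of the 8 were called against 0.488% of all genes. The adjusted p ran from 0.0015 to 0.841 over 16 alternatives.

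Tnf in KO cells had a lowest, median and highest of 1279, 1702 and 2391 CPM with LPS and 802, 1228 and 1677 CPM with LPS+CCM. The groups overlapped, and LPS+CCM was lower in 6 of 6 pairs. The log2 fold change was -0.45 ± 0.19 with adjusted p = 0.563, and -0.39 ± 0.17 without KO replicate 6 (adjusted p = 0.252). Without KO replicates 2, 5 and 6 it was -0.54 ± 0.17 (adjusted p = 0.208, in a range of 0.0124 to 0.997).
Tnfsf15 in KO cells had a lowest, median and highest of 7.66, 200 and 290 CPM with LPS and 7.02, 101 and 185 CPM with LPS+CCM. Besides replicate 6, low LPS+CCM values came from replicate 5 at 25.2 CPM and replicate 2 at 73.3 CPM, whose LPS libraries held 204 and 290 CPM. LPS+CCM was lower in 6 of 6 pairs. With all libraries the log2 fold change was -1.03 ± 0.73 (adjusted p = 0.811), and without KO replicate 6 it was -1.02 ± 0.38 (adjusted p = 0.211). Without KO replicates 2, 5 and 6 it was -0.46 ± 0.15 (adjusted p = 0.215, in a range of 0.0922 to 0.999 over 16 alternatives). Leaving out replicate 6 alone thus changed the error and not the size, while the same-numbered log2 ratios of replicates 2 and 5, -1.99 and -3.02, were the largest of the 6.

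Tnfsf9 in KO cells ran from 10.3 to 47.4 CPM with LPS (median 16.0) and from 9.93 to 31.3 CPM with LPS+CCM (median 15.1), lower in 3 of 6 pairs, with a log2 fold change of -0.23 ± 0.39. Without KO replicate 6 it was -0.02 ± 0.23. Fas ran from 44.4 to 64.4 CPM with LPS and from 43.2 to 83.4 CPM with LPS+CCM, the highest being LPS+CCM replicate 5, with a log2 fold change of 0.16 ± 0.16. The groups of both genes overlapped. Tnfsf13b (0.45 ± 0.25), Tnfrsf1a (-0.14 ± 0.09) and Tnfrsf1b (-0.03 ± 0.11) were not called either, and all 5 genes had an adjusted p between 0.718 and 0.934. Without KO replicates 2, 5 and 6, Fas was 0.02 ± 0.07 and Tnfsf13b 0.16 ± 0.31.

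**Figure D4:**
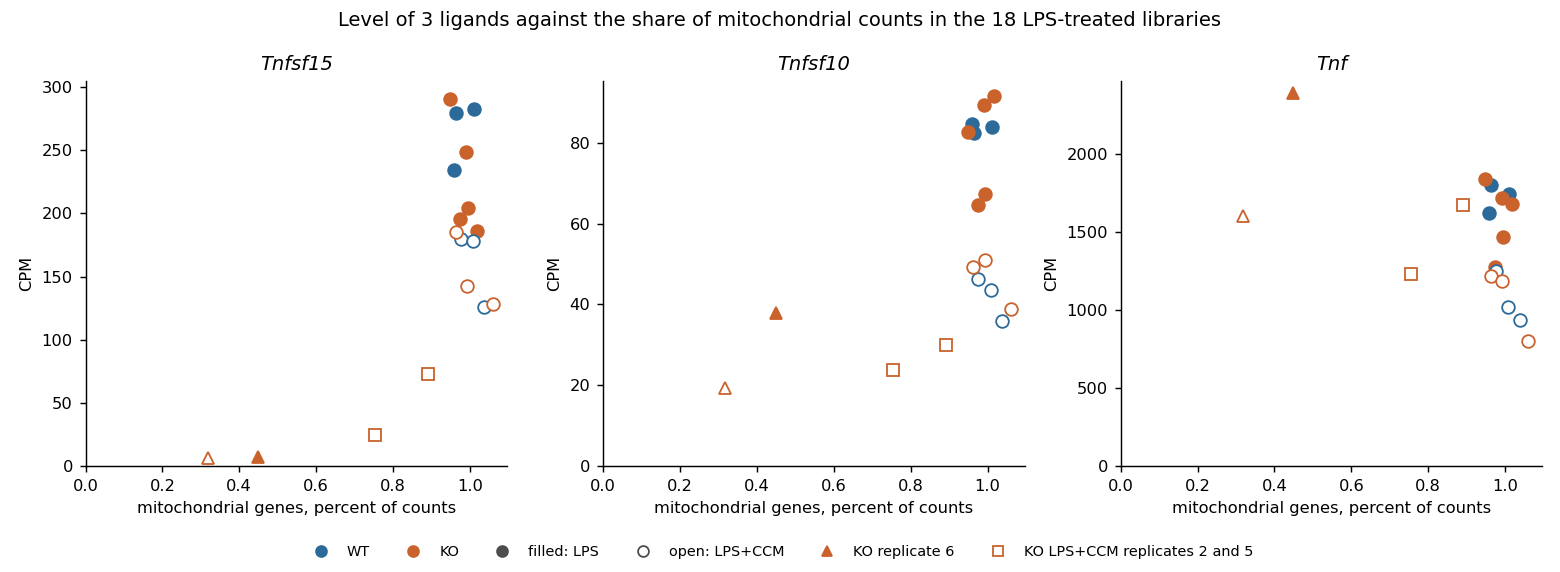
CPM of Tnfsf15, Tnfsf10 and Tnf against the percent of counts on mitochondrial genes in the 18 LPS-treated libraries, filled for LPS and open for LPS+CCM. The 4 libraries with a share under 0.90%, KO replicate 6 in both treatments and KO LPS+CCM replicates 2 and 5, hold the lowest Tnfsf15 values of 7.66, 7.02, 73.3 and 25.2 CPM, while their Tnf values run from 1231 to 2391 CPM.

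With LPS, the libraries with low mitochondrial shares were thus low in Tnfsf15 and Tnfsf10 but not in Tnf. KO replicate 6 with LPS held the highest Tnf (2391 CPM), Tnfsf9 (47.4 CPM), Tnfrsf1a (392 CPM) and Fas (64.4 CPM) of the 6 KO LPS libraries and the lowest Tnfsf15, Tnfsf10 and Tnfrsf1b. What set these libraries apart was not tested.

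Whether CCM acted differently with and without LPS was tested as an interaction within each genotype. In WT cells 1 of the 8 genes was called, Tnfrsf1b, where 2.09% of all genes were. Its CCM log2 fold change was 0.33 without LPS and 0.03 with LPS, and the interaction was -0.32 ± 0.08 on the log2 scale with adjusted p = 0.0447. The call was lost on leaving out any of 10 of the 12 WT libraries (all but vehicle replicate 3 and CCM replicate 3), with values from -0.34 to -0.26 and adjusted p from 0.0584 to 0.117. It was also lost with total counts alone (-0.22, adjusted p = 0.12), in a range of 1.51e-04 to 1 over 20 alternatives. Tnf had an interaction of -0.46 ± 0.15 in WT cells (adjusted p = 0.167). Without LPS+CCM replicate 1 it was -0.59 (adjusted p = 0.0384), and 4 of 20 alternatives called it, in a range of 0.00108 to 1. Tnfsf10 had 0.23 ± 0.30 (adjusted p = 0.834) and Tnfsf15 -0.96 ± 0.60 (adjusted p = 0.525).
In KO cells 0 of the 8 genes were called by edgeR, against 0.00685% of all genes. At an unadjusted p under 0.05 there was 1, Tnfsf13b, next to 3.67% of all genes, and DESeq2 and voom each called 0. Tnfrsf1b had -0.27 ± 0.16, Tnfsf10 0.31 ± 0.44 and Tnfsf15 -0.47 ± 1.16, each with adjusted p = 1. Leaving out KO replicates 2, 5 and 6 gave -1.20 ± 0.50 for Tnfsf15 (adjusted p = 0.929).

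The genotype comparisons asked whether KO cells differed from WT cells. None of the 8 genes was called in edgeR with vehicle (0% of all genes called) or with LPS (0%), and none in the genotype by LPS (0%) or genotype by CCM interaction under LPS (0%). At an unadjusted p under 0.05 there was 0 in the first 3 and 1, Tnfsf13b, in the last, next to 0.82%, 0.761%, 0.742% and 0.495% of all genes, and DESeq2 and voom called 0 in each. Groups of the 2 genotypes overlapped for all 8 genes with vehicle and with LPS. Among the values, the KO minus WT log2 fold change of Tnfsf15 was 0.89 ± 0.89 with vehicle and -0.49 ± 0.69 with LPS. Without KO replicate 6 the latter was -0.24 ± 0.13.
Tnfsf9 with LPS was 0.45 ± 0.43, and without KO replicate 6 it was at 0 to 2 decimals. The genotype by LPS interaction of Tnfsf15 was -1.37 ± 1.26. Without KO replicate 2, whose vehicle library held 1.87 CPM of Tnfsf15, this interaction was -0.705 ± 1.259. The genotype by CCM interaction under LPS was 0.26 ± 0.29 for Tnf, 0.25 ± 0.59 for Tnfsf9, 0.90 ± 0.39 for Tnfsf13b and -0.30 ± 1.09 for Tnfsf15, each with adjusted p = 1. Leaving out KO replicates 2, 5 and 6 gave 0.15 ± 0.22, 0.32 ± 0.31, 0.58 ± 0.40 and 0.25 ± 0.22 for these 4. The log2 fold change of Tnfsf10 with CCM added to LPS was -0.99 in WT and -1.05 in KO cells. Its genotype by CCM interaction under LPS was -0.05 ± 0.40 with RLE scaling and -0.04 ± 0.27 without KO replicate 6. With SEs of this size, the drop of Tnf, Tnfsf9 or Tnfsf10 seen in WT cells cannot be called different from, or equal to, that in KO cells.

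The genes most like each member were taken as the 3 with the highest Pearson r of log2 CPM over the 36 libraries among 11178 genes with a mean log2 CPM of at least 1. For Tnf these were Ccl3, Casp4 and Cd40 (r = 0.997, 0.996 and 0.996), for Tnfsf10 Ifi203, Ifi208 and Gbp7 (0.996, 0.995 and 0.995), and for Tnfsf15 Agrn, Nrp2 and Malt1 (0.991, 0.989 and 0.989). Tnfsf9 was closest to Rnd1, Ccdc86 and Sdc4 (0.984, 0.982 and 0.982). Tnfrsf1a was closest to 4933412E12Rik, Ebi3 and Mapkapk2 (0.991, 0.989 and 0.989), Tnfrsf1b to Slc7a11, Dram1 and N4bp1 (0.997, 0.996 and 0.995) and Fas to Sod2, Srgn and Nfkbia (0.995, 0.994 and 0.993). Tnfsf13b had no close gene, with Psmg2, Dcps and Coq7 at 0.695, 0.686 and 0.679. Without KO replicate 6 (32 libraries), the closest gene was Casp4 for Tnf (0.997), Socs3 for Tnfsf9 (0.989), Gbp7 for Tnfsf10 (0.996), Coq7 for Tnfsf13b (0.577), Tnfaip3 for Tnfsf15 (0.994), Tapbpl for Tnfrsf1a (0.994) and Srgn for Fas (0.997). Only Tnfrsf1b kept its closest gene, and for Tnfsf9 and Tnfrsf1a all 3 were replaced. The libraries include cells with and without LPS, how much of r this sets was not measured, and r was used as a description only. Among the members, r ran from 0.883 (Tnfsf9 with Tnfsf15) to 0.991 (Tnf with Fas), except with Tnfsf13b, where it lay between -0.23 and -0.04. With 32 libraries these ranges were 0.967 to 0.992 and -0.10 to 0.02.

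The other genes of TNF superfamily signalling were taken as 5 lists of 84 genes in all. With LPS in WT cells, 41 were called higher and 14 lower of 74 tested, and in KO cells 35 and 9 of 72, next to the 63% and 47.1% of all genes called. Among 13 other ligands, 8 were tested in WT cells, with 4 higher and 2 lower. The OX40 ligand Tnfsf4 rose from 0.243 ± 0.118 to 13.1 ± 0.999 CPM (log2 fold change 5.81 ± 0.26), lymphotoxin Lta by 4.13 ± 0.45 and the CD30 ligand Tnfsf8 by 3.53 ± 0.42. Lta and Tnfsf8 started from 0.201 ± 0.175 and 0.192 ± 0.102 CPM with vehicle. Like Tnfsf4, they did not pass the filter in the fit of WT vehicle and CCM libraries. Tnfsf12 (TWEAK) changed by -2.07 ± 0.11 and Tnfsf13 (APRIL) by -1.92 ± 0.18.
Among 25 other receptors, 20 were tested, with 5 higher and 7 lower. Cd40, which takes signals from T cells, rose from 3.42 ± 0.753 to 1163 ± 86.9 CPM (8.39 ± 0.14), Tnfrsf8 (CD30) by 4.27 ± 0.12 and Tnfrsf9 (4-1BB), the receptor of Tnfsf9, by 3.24 ± 0.30. Tnfrsf9 started from 0.311 ± 0.0781 CPM with vehicle, and the filter left it out of the fit of WT vehicle and CCM libraries. The decoy receptors Tnfrsf26 and Tnfrsf23 changed by -2.03 ± 0.08 and -1.31 ± 0.13 and death receptor 6 (Tnfrsf21) by -1.52 ± 0.08. Tnfrsf25, the receptor of Tnfsf15, did not pass the filter.

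Of 9 genes for TNF shedding and mRNA control, 5 were higher and 1 lower with LPS in WT cells. Of all genes tested, 63% were called and 30.6% were called higher, the background for each list in this paragraph. Adam17, which cleaves TNF from the membrane, rose by 1.45 ± 0.06, its partner Rhbdf2 by 2.46 ± 0.06 and the RNA-binding Elavl1 by 0.69 ± 0.06, while Zfp36l1, which binds AU-rich mRNA, changed by -2.05 ± 0.11. Of 26 adaptors, kinases and caspases, 18 were higher and 2 lower. Traf1 rose by 6.67 ± 0.14, the caspase-8 regulator Cflar by 3.67 ± 0.09 and the ubiquitin ligase Birc3 by 3.30 ± 0.07, whereas Tab1 was -0.50 ± 0.14 and Map3k14 -0.28 ± 0.11. The Map3k14 call was kept in 5 of 14 alternatives, and without vehicle replicate 1 its value was -0.17 (adjusted p = 0.189). Of 11 brakes on this signalling, 9 were higher and 2 lower. Tnfaip3 (A20) rose by 3.79 ± 0.09, and the IκB genes Nfkbie and Nfkbia by 3.70 ± 0.06 and 3.54 ± 0.07; Tnfaip8l2 was -0.76 ± 0.09 and Otulin -0.44 ± 0.11. Every named gene had groups that did not overlap, with adjusted p from 3.41e-11 (Cd40) to 0.0433 (Map3k14).

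With CCM added to LPS in WT cells, 2 of these genes were called higher and 15 lower of 72 tested, next to the 11.9% of all genes called. The medians of the lists were -0.49 for other ligands, 0.00 for other receptors, -0.08 for shedding and mRNA control, -0.03 for adaptors, kinases and caspases and -0.13 for brakes, against 0.01 over all genes. Tnfsf14 (LIGHT, -1.31 ± 0.28) and Tnfsf4 (-0.48 ± 0.11) were lower among the ligands. Without LPS+CCM replicate 3, Tnfsf14 was -1.22 (adjusted p = 0.0502), and without LPS replicate 2 or 3, Tnfsf4 was -0.47 or -0.43 (adjusted p = 0.0695 or 0.0683). Among receptors Cd40 (-0.76 ± 0.07), Tnfrsf8 (-0.52 ± 0.08) and Tnfrsf14 (-0.38 ± 0.07) were lower and Tnfrsf21 (0.62 ± 0.07) was higher, opposite to its direction with LPS.
Timp3, an inhibitor of ADAM17, was lower (-0.44 ± 0.09). Among 26 adaptors, kinases and caspases, 7 were lower, among them Rnf31 (-0.51 ± 0.06) and Casp8 (-0.38 ± 0.06), and Map3k14 was higher (0.37 ± 0.08). The last was not called without LPS replicate 3 (0.30, adjusted p = 0.0621), LPS+CCM replicate 1 (0.34, 0.0615) or LPS+CCM replicate 3 (0.37, 0.0525). The brakes Cyld (-0.37 ± 0.06) and Tnfaip3 (-0.32 ± 0.05) were lower. The adjusted p of these genes ran from 1.13e-04 (Cd40) to 0.0177 (Map3k14). With the replicate block, 26 of the 72 tested genes were called, where 23.7% of all genes were. The comparisons of LPS with vehicle and of LPS+CCM with LPS share the LPS libraries, so opposite signs in them are not independent.

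In KO cells, 0 of 72 pathway genes were called by edgeR with CCM added to LPS, with 10 at an unadjusted p under 0.05 (7.99% of all genes), 1 by DESeq2 (1.3% of all genes) and 9 by voom (5.74% of all genes). The median of the 72 was -0.11, with 54 of them below 0, against 0.00 over all genes. Without KO replicate 6 the median was -0.10, with 51 below 0 and 2 called lower, where 1.27% of all genes were called. Without KO replicates 2, 5 and 6 it was -0.08, with 48 below 0 and 1 called higher, against 0.01 over all genes. That last setting called 0.488% of all genes. CCM alone called 0 of 70 in WT and 0 of 68 in KO cells, with 9 and 2 at an unadjusted p under 0.05, next to 10% and 2.41% of all genes. The calls were 3 (2.41% of all genes) and 0 by DESeq2, and 0 and 3 (2.17% of all genes) by voom.

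**Figure D5:**
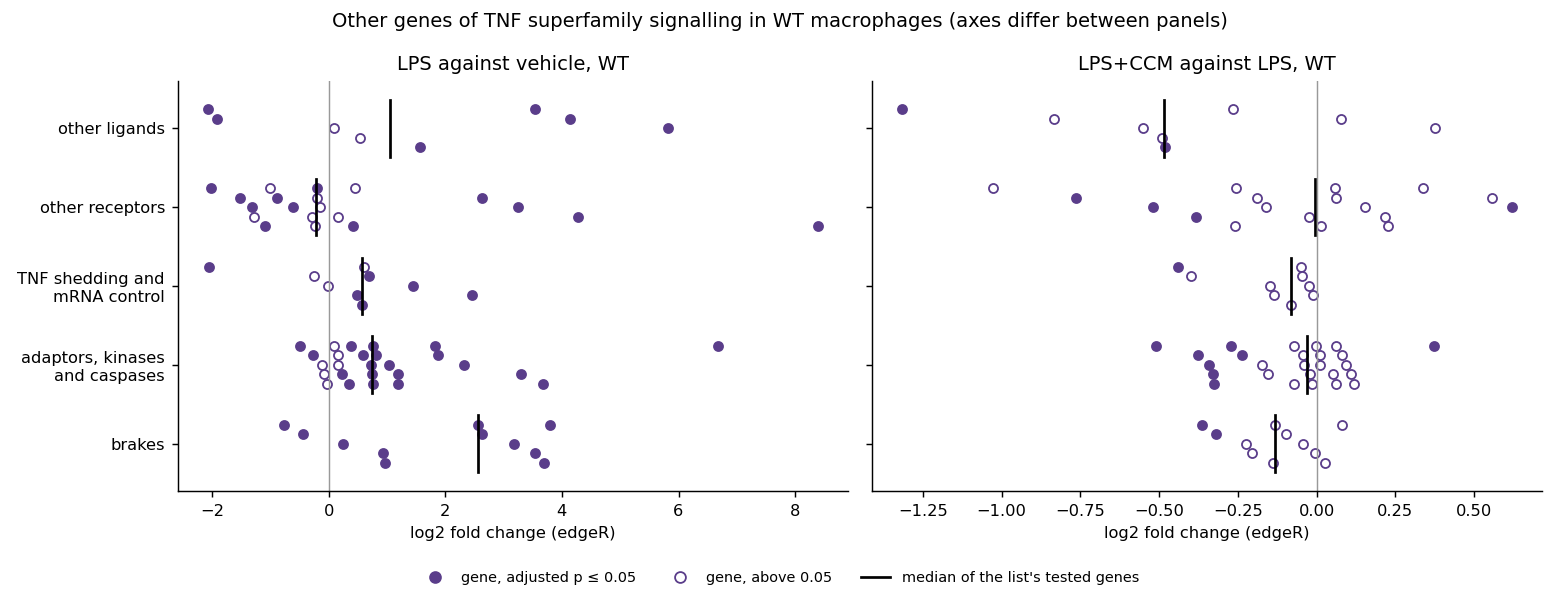
Log2 fold changes of the tested genes of 5 lists in WT cells, for LPS against vehicle and for LPS+CCM against LPS; each point is a gene, filled at an adjusted p of 0.05 or less, and the bar is the list's median. The brakes have a median of 2.57 with LPS and -0.13 with CCM added to LPS.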

How the data were processed

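The deposited table holds raw gene-level read counts that the authors made, per the submitters' processing notes, with fastp (read cleaning), HISAT2 2.0.5 (alignment to mm10) and featureCounts 1.5.0-p3. The sources used here do not state if reads were assigned by strand. Gene lengths and positions were taken from the same table.

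Each comparison was fitted to its own libraries in edgeR 4.0.16 (quasi-likelihood F test, filterByExpr by group, TMM scaling), two-sided, with Benjamini-Hochberg adjustment over all genes tested and a call at an adjusted p of at most 0.05. Each ± beside a log2 fold change is its SE. CPM used TMM factors over 15720 genes that passed the filter on all 36 libraries. Log2 CPM for correlations used a prior count of 2. Alternatives were DESeq2 1.42.0, limma 3.58.1 voom with quality weights, RLE, upper-quartile and total-count scaling, no filter, the replicate number as a block, 1 fit of all 36 libraries, and leaving out each WT library or KO replicate number in turn. After seeing the data, 2 more were added: leaving out KO replicates 2, 5 and 6, and the replicate block without KO replicate 6. Scripts ran in R 4.3.3 and Python 3.11.15 and were tested on simulated data.

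Same-numbered libraries were taken as paired where the distances of both from their group means correlated at over 0.1 in every pair: LPS in KO (0.245 to 0.762), CCM in KO (0.259 to 0.795) and CCM under LPS in WT (0.122 to 0.283). The labels do not say what a replicate number marks. All 8 members were named in every comparison, and of each pathway list up to 3 genes called higher and 3 called lower with the largest log2 fold change, for LPS in WT and for CCM under LPS in WT and KO (none called in KO); 1 gene that this rule names is not reported here. The members and the lists were chosen with earlier results of these data known.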

Additional observations from a re-analysis of the deposited data

Results flagged for a closer look

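KO replicate 6 lay far from the other 5 libraries of its group in 6 values. Its share of counts on mitochondrial genes was 0.391% with vehicle (nearest library 1.41%), 0.255% with CCM (nearest 1.37%) and 0.449% with LPS (nearest 0.948%). With LPS it held 47.4 CPM of Tnfsf9 (nearest 18.2), 64.4 CPM of Fas (nearest 50.8) and 7.66 CPM of Tnfsf15 (nearest 186). A library was marked when its gap to the nearest was large for the range of its group (Dixon's critical value for 6 samples). Chance marks about 1 in 20 groups, and 36 groups of 6 KO libraries were tested, 32 of them for the 8 genes. WT groups of 3 were not tested. What set replicate 6 apart was not tested.

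The effect of CCM on Tnfrsf1b differed between WT cells with and without LPS, by an interaction of -0.32 on the log2 scale, which passed the test with all libraries but not without any of 10 of the 12 WT libraries.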

How the results depend on the processing

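The counts given here cover part of the log2 fold changes recomputed under the alternatives. Among those covered, 1421 kept their direction and their side of the threshold, 59 lost a call, 22 gained a call and 14 reversed. Values outside this count also reversed. Tnfsf13b for genotype in vehicle was 0.044, and -0.211 without KO replicate 6. Tnf for genotype under LPS was 0.005, and -0.162 with voom. The number of members called stayed within 1.5 times the reported number in 171 fits, rose by more in 15 and fell by more in 13. For LPS it stayed within 7 to 8 of 8 throughout, in both genotypes.

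Members called for CCM in WT went from 0 to 1 with DESeq2 (2.41% of all genes called) and with no filter on low counts (1.47%). For CCM in KO, leaving out 1 replicate number gave 0 to 1 (1.01% without KO replicate 6). For CCM under LPS in WT, 4 became 0 in the fit of all 36 libraries (0.108%), and leaving out 1 library gave 3 to 4. For CCM under LPS in KO, 0 became 1 with DESeq2 (1.3%), 2 with voom (5.74%) and 1 in the fit of all 36 libraries (1.81%), and leaving out 1 replicate number gave 0 to 1 (1.27% without KO replicate 6). In the WT interaction of LPS and CCM, 1 became 2 with DESeq2 (8.84%) and with no filter (2.59%), and 0 with total counts alone (2.35%), with upper-quartile scaling (1.82%) and in the fit of all 36 libraries (0%), and leaving out 1 library gave 0 to 1. The cause was not tested.

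With the replicate block, members called were 1 for CCM in WT (1.82% of all genes called), 1 for CCM in KO (3.11%) and 2 for CCM under LPS in KO (5.8%). The WT interaction of LPS and CCM had 2 (3.72%). The replicate block without KO replicate 6, chosen after seeing the data, gave 2 for CCM in KO (5.24%) and 1 for CCM under LPS in KO (2.26%). Same-numbered correlations were 0.085 to 0.172 for LPS in WT, 0.075 to 0.384 for CCM in WT and -0.056 to 0.719 for CCM under LPS in KO, so these were not taken as paired. Every library correlated best with its own number in the 3 WT comparisons and not in the KO ones. In the paired comparisons, the block changed no other call of a member than those given in the report.

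Values that reversed were close to 0 in most cases. Tnfsf13b for LPS in WT was 0.183 without vehicle replicate 1, and leaving out single libraries gave -0.471 to 0.183. Tnfsf9 for CCM in WT was 0.0015 without vehicle replicate 3 (single libraries -0.307 to 0.0015), and for CCM in KO 0.012 with voom. Fas for CCM under LPS in WT was -0.0002 with DESeq2, -0.0033 with RLE scaling and -0.016 with voom. Leaving out LPS replicate 1 gave -0.044 and LPS+CCM replicate 2 -0.039, in a range of -0.044 to 0.032. Tnfrsf1b for CCM under LPS in KO was 0.00092 with voom, 0.00088 without KO replicate 2 (replicate numbers -0.051 to 0.00088) and 0.045 without KO replicates 2, 5 and 6. Tnfsf9 for genotype under LPS was -4.6e-05 without KO replicate 6 (replicate numbers up to 0.588). Tnfsf15 for the genotype by CCM interaction under LPS was 0.050 with voom and 0.247 without KO replicates 2, 5 and 6. The cause was not tested.

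Over all genes, calls ran from 5644 to 10611 for LPS in WT (9139 as reported), 5429 to 10023 for LPS in KO (6433), 0 to 377 for CCM in WT (8), 0 to 729 for CCM in KO (0), 17 to 3220 for CCM under LPS in WT (1621), 0 to 777 for CCM under LPS in KO (15), and for the interactions of LPS and CCM 0 to 721 in WT (308) and 0 to 100 in KO (1). Total counts alone moved the share of calls that were higher from 48.6% to 24% for LPS in WT, from 47.6% to 24.2% for LPS in KO and from 34.8% to 67.7% for CCM under LPS in WT. Upper-quartile scaling gave 36% for LPS in WT and 34.9% for LPS in KO.

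Leaving out a WT library left 2 in a group of 3. Tnfsf10, Tnfsf13b and Tnfsf15 had few counts without LPS, which limits what a test of CCM alone can show for them.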
